A study of Mus musculus with 60 samples.

Results

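BIO 300 is an amorphous dispersion of synthetic genistein, a plant isoflavone that acts as an agonist of oestrogen receptor beta, and it was given here to mice that were not irradiated. Whole blood of 6 mice that had received 50 mg/kg BIO 300 and were bled 48 h after dosing ended (Day 1) was compared with that of 6 other mice given the same dose and bled 24 h after dosing ended (Day 0). These are 12 of the 60 mice of the series, chosen by the dose and day in their labels. All were male CD2F1 mice, bought at 5 to 6 weeks of age and gavaged 2 times a day for 6 days, and each gave a single terminal sample from the vena cava under isoflurane. The Day 0 mice carry the animal numbers 1 to 6 and the Day 1 mice the numbers 31 to 36. Vehicle-treated mice of the same strain and sex, 6 on Day 0 (numbers 13 to 18) and 6 on Day 1 (numbers 25 to 30), give the change over the same 24 h without drug. No mouse was followed over time, so every difference between the days is a difference between groups of mice, and the mice shared cages of 3 that the labels do not identify. The question was whether transcripts that were low 24 h after the last dose stood higher 48 h after it.

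Whole blood RNA is a mixture. Reticulocytes, the youngest red cells in blood, have lost their nucleus but still carry the RNA made in the marrow, most of it for globin chains, haem synthesis, the membrane skeleton and the clearance of organelles, and they lose this RNA as they mature. Platelets carry RNA inherited from megakaryocytes. B cells, T cells, neutrophils and monocytes supply the rest, and since a library holds a limited number of reads, a larger share from one source leaves a smaller share for the others.

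Counts assigned to genes summed to between 16962659 and 27313064 in the 6 Day 0 libraries and between 21247249 and 30445343 in the 6 Day 1 libraries, and the totals did not separate the days (means 24237900 ± 3706540 and 25128800 ± 3040810, SD, n = 6 each, exact two-sided permutation test, p = 0.669, 0.669 after Benjamini-Hochberg adjustment over 6 library measures). The makeup of the libraries did. The number of genes at 1 CPM (counts scaled to library size) or more fell from 14414 ± 454 to 13057.5 ± 628 (SD, n = 6) with no overlap between the days, and the share of counts on the 10 largest genes rose from 27.1% ± 2.29 to 34.2% ± 1.92, again with no overlap (both exact permutation p = 0.00216, the smallest that 6 against 6 mice can give, adjusted 0.00433). The factor by which TMM, the scaling used here, corrects for such differences in makeup fell from 1.27 ± 0.157 to 0.804 ± 0.156 (SD, n = 6, the same exact p and adjusted p).

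Globin genes took 4.10% to 11.1% of counts on Day 0 (median 5.32%) and 8.02% to 12.2% on Day 1 (median 10.0%). The mean share rose by 3.72 percentage points (exact permutation p = 0.0260, adjusted 0.0390), although the library methods of the study name a step that depletes globin RNA. Gm26917, a noncoding locus at chr17:39843013-39846341 (GRCm38) that took more counts than any other single gene in several libraries and is known to collect ribosomal RNA reads, moved the other way, from 6.32% to 12.9% of counts on Day 0 to 4.05% to 10.5% on Day 1 (exact permutation p = 0.0346, adjusted 0.0416). The groups overlapped in both shares.

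Some libraries stood apart. Mouse 2 had the highest red cell transcript levels of the Day 0 group, with 11.1% globin against 4.10% to 8.35% in the other 5 mice, and 6.32% on Gm26917 against 9.85% to 12.9%. It lay inside the Day 1 range for both. Mouse 32 had the lowest TMM factor of the 12 mice (0.545) and the lowest share on Gm26917 (4.05%). In mouse 1, of Day 0, all 16 genes of a hepatocyte list exceeded 10 CPM, against 0 to 2 in the other 11 mice, and the list took 0.217% of its counts. Among the vehicle-treated mice, mice 17 (Day 0) and 29 (Day 1) likewise held 1.47% and 0.294% of their counts on that list.

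**Figure D1:**
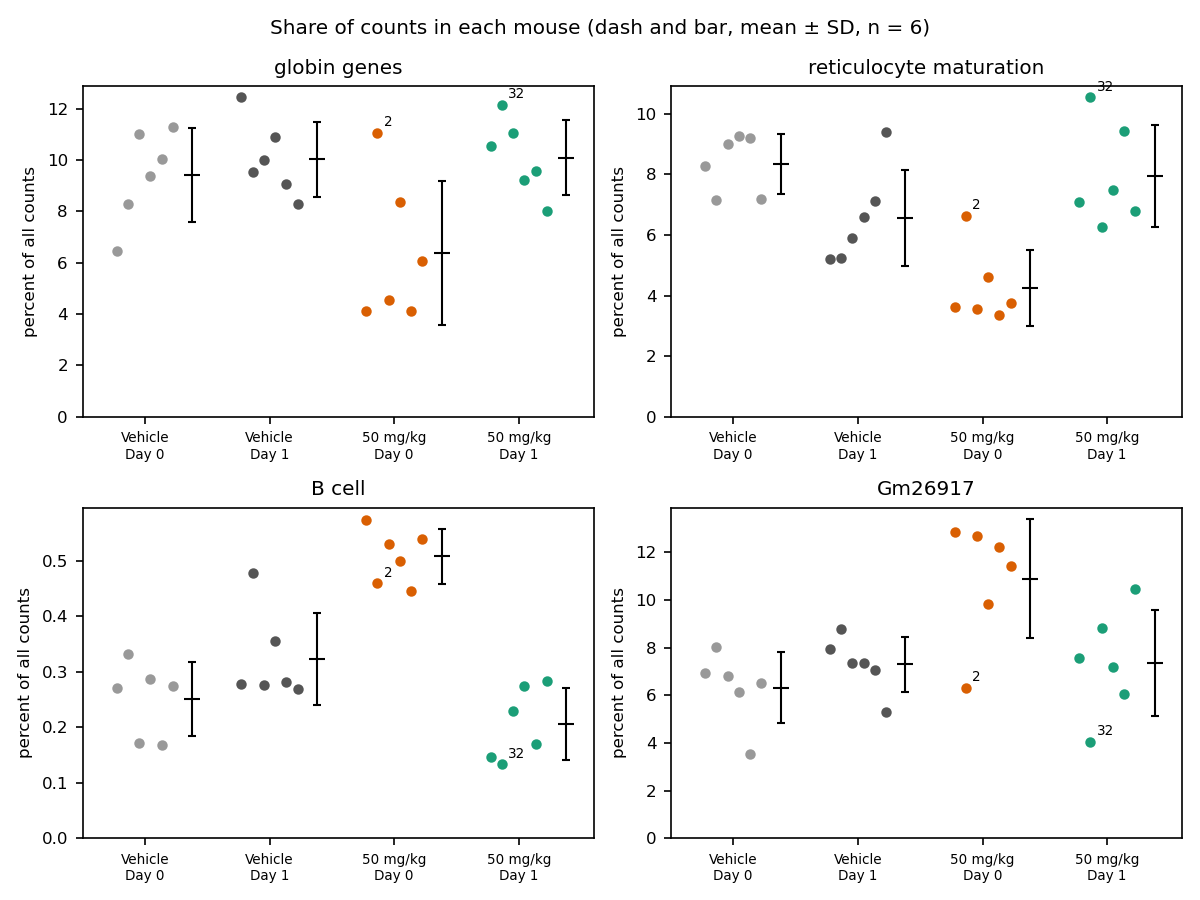
Percent of all counts (vertical axis, from 0) on globin genes, on the reticulocyte maturation list, on the B cell list and on Gm26917, with 1 dot for each mouse and a dash and bar for the mean and SD of each group of 6; mice 2 and 32 are numbered. For the red cell shares, the Day 0 mice given 50 mg/kg had the lowest group mean but overlapped the Day 1 groups through mouse 2 and, for globin, mouse 4 (8.35%). For B cell genes they sat at 0.445% to 0.574%, above the 0.134% to 0.283% of the Day 1 mice given 50 mg/kg. The vehicle-treated mice of Day 1, at 0.269% to 0.478%, overlapped them.

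A differentially expressed gene (DEG) had an adjusted p under 0.05 in edgeR's quasi-likelihood test (Benjamini-Hochberg over all genes tested) and an absolute log2 fold change over 1. With TMM scaling, 1331 of 24169 genes tested (5.51%) were DEGs higher on Day 1 and 153 (0.633%) were DEGs lower on Day 1. By adjusted p alone, 2937 genes were higher (12.2%) and 2147 lower (8.88%). The 6 mice of one day did not overlap the 6 of the other for 2048 genes (8.47%). Protein-coding genes made up 1009 of the DEGs higher on Day 1. Without mouse 32, 1030 genes were DEGs higher on Day 1 and 104 lower, and without mouse 2 the counts were 1516 and 160.

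The balance of directions rested on the scaling. When libraries were scaled by their total counts, 153 genes were higher (0.633%) and 3963 lower (16.4%), and the median log2 fold change of all genes moved by -0.65, from -0.09 to -0.74. Of the 1331 genes higher with TMM, 148 were also DEGs with total counts, all higher, and all 153 genes lower with TMM were lower with total counts too. The following changes are therefore relative to most of the genes measured, not to all counts of a library. Calls are those with TMM unless total counts are named. Of the 60 DEGs higher on Day 1 that were named by rule, 14 were DEGs with total counts too (log2 1.01 to 2.36), namely the 10 largest increases described below, Slc25a39, Tspan33, Rnf10 and Rn7s1. The other 46 kept a positive value there (0.32 to 0.99) but missed the fold limit, and 43 of them had an adjusted p under 0.05, the exceptions being Hbb-bt, F13a1 and Oas3. A ratio within a library needs no scaling: counts on the 63 genes of the haem, membrane and reticulocyte maturation lists, divided by counts on the 14 B cell genes, were 14.0 to 31.2 on Day 0 (median 16.2) and 52.9 to 177 on Day 1 (median 81.1), with no overlap. The B cell list moved the opposite way. Over counts on the 17 T cell genes, the ratio was 25.9 to 112 on Day 0 (median 36.5) and 78.6 to 323 on Day 1 (median 146), and the days overlapped through mouse 2, which lay above 2 of the Day 1 mice. In bulk blood, fewer cells of a type and less RNA per cell cannot be told apart.

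Haem synthesis genes rose. Of 15 measured enzymes and carriers, 9 were DEGs higher on Day 1, 0 were lower and 15 had a positive log2 fold change, with a median of 1.40 against -0.09 for all genes. Alas2, the erythroid enzyme that starts haem synthesis (ENSMUSG00000025270, chrX:150547375-150570638), stood at 11729.9 to 34759 CPM on Day 0 (median 15165.3) and 37978.6 to 100374 CPM on Day 1 (median 49505.4). The days did not overlap, and the highest Day 0 value was that of mouse 2. CPM per mouse and fitted changes come from separate fits, so the ratio of CPM means can depart slightly from the fitted fold change. The fitted change was 3.19-fold (log2 1.67, standard error 0.39, edgeR adjusted p = 0.00681), and with total counts the log2 value was 0.99.

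The mitochondrial carriers Slc25a39 and Slc25a37 moved with it. Slc25a39, needed for glutathione import and haem synthesis, stood at 1630.85 to 4796.42 CPM on Day 0 (median 2238.68) and 5713.35 to 14241.9 CPM on Day 1 (median 7486.92), with a log2 fold change of 1.72 (standard error 0.32, edgeR adjusted p = 0.00195), and it was the single member still called with total counts (1.03). Slc25a37, which imports iron into mitochondria, rose by a log2 fold change of 1.61 and the porphyrin transporter Abcb6 by 1.65. With total counts the median of the list was 0.70 and 12 of 15 members stayed positive.

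Globin genes showed the same direction with wider spread. Hbb-bs, an adult beta globin gene (ENSMUSG00000052305, chr7:103826534-103828096), stood at 26239.4 to 98677.2 CPM on Day 0 (median 36474.6) and 74947.1 to 204377 CPM on Day 1 (median 113356). Mouse 2 exceeded the lowest Day 1 mice, and the log2 fold change of 1.32 (standard error 0.46) missed the threshold (edgeR adjusted p = 0.0552). Hbb-bt, the second adult beta globin gene, rose from 1781.72 ± 953.9 to 4128.75 ± 2018.85 CPM (SD, n = 6, log2 fold change 1.20, adjusted p = 0.0242). It was not called without mouse 3, 5, 32 or 35, nor with total counts (log2 0.51, adjusted p = 0.0521). Of 8 globin genes, 3 were DEGs higher on Day 1 and 8 had a positive log2 fold change, with a median of 1.31 (total counts, 0.69, with 1 DEG). With each mouse left out in turn the count was 1 to 6. It was 6 without mouse 2, 4 without mouse 36, 2 without mouse 1, 6 or 31, and 1 without mouse 3, 5, 32 or 35. The near-identical coding sequences of the paired globin genes can split or exchange reads, so single globin values are uncertain.

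Membrane and skeleton genes rose. Of 21 measured members, 19 were DEGs higher on Day 1, 0 were lower, and the median log2 fold change was 1.46 (total counts, 0.72, with 1 DEG). Slc4a1, the band 3 anion exchanger (ENSMUSG00000006574, chr11:102348824-102366203), stood at 681.37 to 2500.44 CPM on Day 0 (median 1017.98) and 1964.52 to 8315.41 CPM on Day 1 (median 2855.5). Mouse 2 lay above 3 of the Day 1 mice, and mouse 32 lay above all other mice of both days. The change was 3.01-fold (log2 1.59, standard error 0.39, edgeR adjusted p = 0.00963; total counts, 0.84).

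The largest change among the 21 was that of Tspan33, a tetraspanin gene of erythroid cells, from 82.0 ± 35.7 to 277 ± 108 CPM (SD, n = 6, log2 1.74, adjusted p = 0.00126), which was called with total counts as well (1.05). Add2, which encodes the beta adducin of the spectrin skeleton, rose by 1.63 on the log2 scale, the blood group antigen gene Ermap by 1.62 and the water channel gene Aqp1 by 1.62. The 2 measured members that missed the fold limit, Gypc and Add1, were at 0.89 and 0.60 with adjusted p of 0.00131 and 0.016; they are named after their values were seen.

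Reticulocyte maturation genes, which act in the removal of mitochondria and proteins or mark the late red cell, rose with them. Of 26 members, 21 were DEGs higher on Day 1, 0 were lower and 26 had a positive log2 fold change, with a median of 1.45 (total counts, 0.74, with 1 DEG). Bnip3l, the receptor through which reticulocytes clear mitochondria (ENSMUSG00000022051, chr14:66985239-67008877), stood at 2778.13 to 9007.57 CPM on Day 0 (median 3705.76) and 9065.12 to 20994.7 CPM on Day 1 (median 12637.4). The days did not overlap by a narrow margin, which was set by mouse 2. The fitted change was 3.09-fold (log2 1.63, standard error 0.34, edgeR adjusted p = 0.00368; total counts, 0.96).

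The ubiquitin ligase genes Rnf10 and Ube2o rose by 1.72 and 1.69 on the log2 scale. Ube2o remodels the proteome of reticulocytes by marking ribosomal and other proteins for destruction. Bcl2l1, whose product keeps late erythroid cells alive, rose by 1.68. With each mouse left out in turn, the number of DEGs higher on Day 1 was 18 to 22 in this list, 18 to 19 in the membrane list and 8 to 9 in the haem list. Without mouse 2 the medians were 1.75, 1.74 and 1.57, and without mouse 32 they were 1.26, 1.18 and 1.22.

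Erythroid regulators, which act in the nucleated precursors, were counted at lower levels and rose as well. Of 14 measured transcription factor and receptor genes, 11 were DEGs higher on Day 1 and 0 lower, with a median log2 fold change of 1.27 (total counts, 0.56, with 0 DEGs higher and 1 lower). Gata1, the master regulator of red cell and platelet precursors (ENSMUSG00000031162, chrX:7959260-7978071), stood at 14.4 to 28.5 CPM on Day 0 (median 19.3) and 33.0 to 67.1 CPM on Day 1 (median 52.8), with no overlap (log2 fold change 1.31, standard error 0.18, edgeR adjusted p = 0.00123). Klf1, the erythroid activator of beta globin, rose from 1.93 ± 0.480 to 5.00 ± 2.02 CPM (SD, n = 6, log2 1.34, adjusted p = 0.00193).

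Epor, the erythropoietin receptor gene, stood at 1.24 to 2.33 CPM on Day 0 and 3.15 to 7.51 CPM on Day 1, again with no overlap (log2 1.49, standard error 0.21, edgeR adjusted p = 0.00123). E2f2, a cell cycle regulator needed for terminal erythroid division, and its partner Tfdp2 both rose by 1.49. Tfrc, the transferrin receptor gene, rose by 1.29. Bcl11a, which is also a B cell factor, and Ldb1 were the members with a negative value (-0.35 and -0.08, not DEGs; named after their values were seen).

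GATA1 binds DNA at short sites built around GATA, so the start regions of Alas2, Klf1 and Epor are shown, 3 DEGs whose RefSeq window held such letters and which were chosen after the windows were seen. The 250 bases before the RefSeq start were searched on both strands for 4 hexamers, the first being AGATAA, another being TGATAA, a further one AGATAG and the last one TGATAG, which share the letters GATA and differ in the flanking base on either side. At least 1 of the 4 was found in 19 of 59 promoters (32.2%) of the haem, membrane, maturation and regulator lists and in 2594 of 13482 promoters (19.2%) of all genes tested, a description without a test. By list the share was 2 of 12 for haem synthesis (16.7%) and 4 of 20 for maturation (20.0%), near that of all genes, and 8 of 15 for the membrane list (53.3%) and 5 of 12 for the regulators (41.7%). The bases below (RefSeq, GRCm38.p6, 5′ to 3′ on the strand of the gene) stop where the gene begins in either annotation, and capitals mark the hexamer, read on the opposite strand in each case. No match in a window says only that these letters are not in it.
Alas2 (chrX:150547167-150547374, plus strand): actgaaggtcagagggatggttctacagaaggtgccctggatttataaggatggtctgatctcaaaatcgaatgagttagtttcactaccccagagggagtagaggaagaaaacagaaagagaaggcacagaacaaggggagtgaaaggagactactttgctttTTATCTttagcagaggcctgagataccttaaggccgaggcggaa
Klf1 (chr8:84901732-84901927, plus strand): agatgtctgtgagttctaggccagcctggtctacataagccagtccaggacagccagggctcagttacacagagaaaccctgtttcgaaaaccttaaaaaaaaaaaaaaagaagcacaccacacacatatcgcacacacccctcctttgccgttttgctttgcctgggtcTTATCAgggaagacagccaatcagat
Epor (chr9:21963577-21963826, minus strand): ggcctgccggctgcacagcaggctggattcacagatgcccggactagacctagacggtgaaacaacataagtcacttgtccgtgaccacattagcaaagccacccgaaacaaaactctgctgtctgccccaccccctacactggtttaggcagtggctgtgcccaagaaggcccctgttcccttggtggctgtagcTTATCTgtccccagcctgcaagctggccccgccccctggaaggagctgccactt

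Of 13 iron handling genes, 4 were DEGs higher on Day 1, 0 were lower, and the list's median was 0.45 (total counts, -0.24, with 0 DEGs). They were the ferritin light and heavy chain genes Ftl1 (log2 1.62) and Fth1 (1.37), the ferritin receptor gene Ncoa4 (1.56) and Tfrc, which the regulator list holds as well. Ftl1 stood at 1952.88 to 5967.3 CPM on Day 0 and 6909.06 to 15706.3 CPM on Day 1, without overlap. Among 14 antioxidant genes, 4 rose: Glrx5 (1.63), which acts in iron-sulphur cluster assembly, and the peroxide-clearing enzyme genes Prdx2 (1.61), Gpx1 (means of 1381.72 and 3956.97 CPM) and Cat (1.35). The median of that list was 0.71 with TMM and 0.01 with total counts, which gave 0 DEGs higher and 1 lower.

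**Figure D2:**
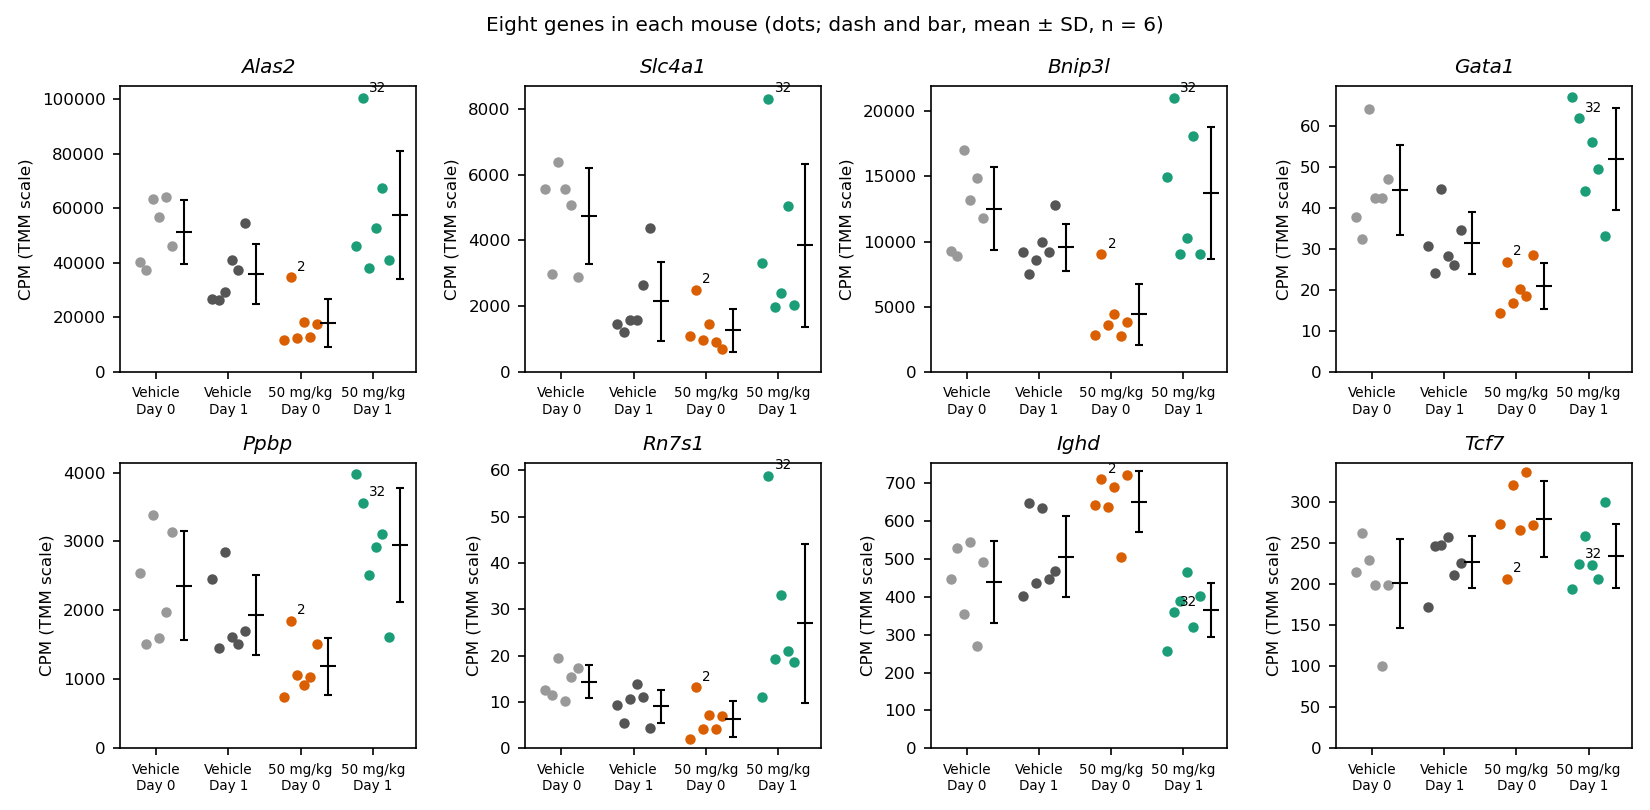
Level of 8 genes as TMM-scaled CPM (vertical axis, from 0) in vehicle-treated mice and mice given 50 mg/kg on Day 0 and Day 1, with 1 dot for each mouse and a dash and bar for the mean and SD (n = 6); mice 2 and 32 are numbered. Alas2, Bnip3l, Gata1 and Ppbp had their lowest group mean in the 50 mg/kg Day 0 mice, and Ighd had its highest group mean there, at 504 to 722 CPM.

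Platelet genes rose. Of 17 measured members, 16 were DEGs higher on Day 1, 0 were lower, and the median log2 fold change was 1.26 (total counts, 0.57, with 0 DEGs). Ppbp, the platelet basic protein gene (ENSMUSG00000029372, chr5:90768518-90770063), stood at 748 to 1853.39 CPM on Day 0 (median 1052.48) and 1617.3 to 3983.88 CPM on Day 1 (median 3011.82). The days overlapped through mouse 2 and the lowest Day 1 mouse, and the log2 fold change was 1.30 (standard error 0.25, edgeR adjusted p = 0.00239). Gp9, part of the von Willebrand factor receptor, rose by 1.45, from 72.5 to 201 CPM on Day 0 to 204 to 465 CPM on Day 1. It was the 1 member of 17 whose days did not overlap, by a narrow margin set by mouse 2. Over all genes tested the days did not overlap for 8.47%.

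Clec1b, the podoplanin receptor gene, rose by 1.38 and Nrgn by 1.31. Selp, the member that was not a DEG, was at 0.50 (named after its value was seen). F13a1, which encodes a coagulation factor subunit carried by both platelets and monocytes, was the single DEG among 13 monocyte genes (log2 1.01, adjusted p = 0.00203), whose median was 0.03; without mouse 1, 3, 4, 31 or 32 that list had 0 DEGs. Between 13 and 16 platelet genes were DEGs with each mouse left out in turn, and 16 without mouse 2.

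Genes of cycling cells rose in part. Of 16 members, 8 were DEGs higher on Day 1, 0 were lower, and the median was 1.07 (total counts, 0.36, with 0 DEGs). Birc5, the survivin gene, stood at 2.58 to 4.77 CPM on Day 0 and 5.80 to 15.9 CPM on Day 1, without overlap (log2 1.46, standard error 0.22, edgeR adjusted p = 0.00123). The cyclin genes Ccna2 and Ccnb2 rose by 1.43 and 1.40 and Rrm2, a subunit of ribonucleotide reductase, by 1.34. The replication genes Pcna, Mcm2 and Mcm5 were at 0.13, 0.03 and 0.01 and were not DEGs; they were named after their values were seen.

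Histone genes, most of which are expressed in dividing cells, had 7 DEGs higher on Day 1 and 0 lower among 61 members, with a median of 0.66 with TMM and -0.03 with total counts. Hist1h4i rose from 33.9 ± 7.29 to 79.5 ± 16.1 CPM (SD, n = 6, log2 1.22, adjusted p = 0.00123), with no overlap, and Hist1h2bc rose by 1.25. Without mouse 5 the count was 12. Histone genes are near-identical copies, so their single values are uncertain.

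B cell genes went the other way. All 14 measured members had a negative log2 fold change with an adjusted p under 0.05, against 8.88% of all genes, and 0 of them reached the fold limit, with a median of -0.63 and 0 DEGs by DESeq2 too. Ighd, the IgD heavy chain gene of naive B cells (ENSMUSG00000104213, chr12:113406604-113416324), stood at 504 to 722 CPM on Day 0 (median 665.7) and 257 to 466 CPM on Day 1 (median 374), without overlap (log2 -0.84, standard error 0.14, edgeR adjusted p = 0.0015). Ighm, the IgM heavy chain gene, went from 923 ± 114 to 616 ± 107 CPM (SD, n = 6, log2 -0.59, adjusted p = 0.00762). With total counts all 14 were DEGs lower on Day 1, against 16.4% of all genes. Their median was then -1.27, against -0.74 for all genes, and by either scaling the direction was the same. As a share of counts the list went from 0.445% to 0.574% on Day 0 to 0.134% to 0.283% on Day 1.

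MHC class II genes, which B cells and other antigen-presenting cells express, behaved likewise. Of 10 members, 10 were lower by adjusted p and 0 were DEGs, with a median of -0.54. With total counts the median was -1.17 and 10 were DEGs lower, against -0.74 and 16.4% for all genes. Cd74, the invariant chain gene, was at 2020.62 ± 236 CPM on Day 0 and 1423.5 ± 232 CPM on Day 1 (SD, n = 6), and H2-Aa was at -0.54 on the log2 scale. T cell genes gave 0 DEGs among 17 with edgeR and with DESeq2, 4 with an unadjusted p under 0.05, all lower, and a median of -0.21. Tcf7 and Lef1, factors of naive T cells, were at -0.26 and -0.38.

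NK cell genes had 0 DEGs of 12 (median 0.10), neutrophil genes 0 of 14 (0.12) and eosinophil and basophil genes 0 of 10 (0.15), by edgeR and by DESeq2, with 0, 2 and 2 genes at an unadjusted p under 0.05. The median over all genes tested was -0.09. With total counts these medians were -0.58, -0.57 and -0.48, so that the sign of the leukocyte medians other than those of B cells, T cells and MHC class II depended on the scaling. Examples are Gzma, a granzyme gene, at 0.20 with TMM and -0.49 with total counts, Csf3r, the G-CSF receptor gene, at 0.18 and -0.50, and Ccr3, the eotaxin receptor gene, at 0.16 and -0.45.

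**Figure D3:**
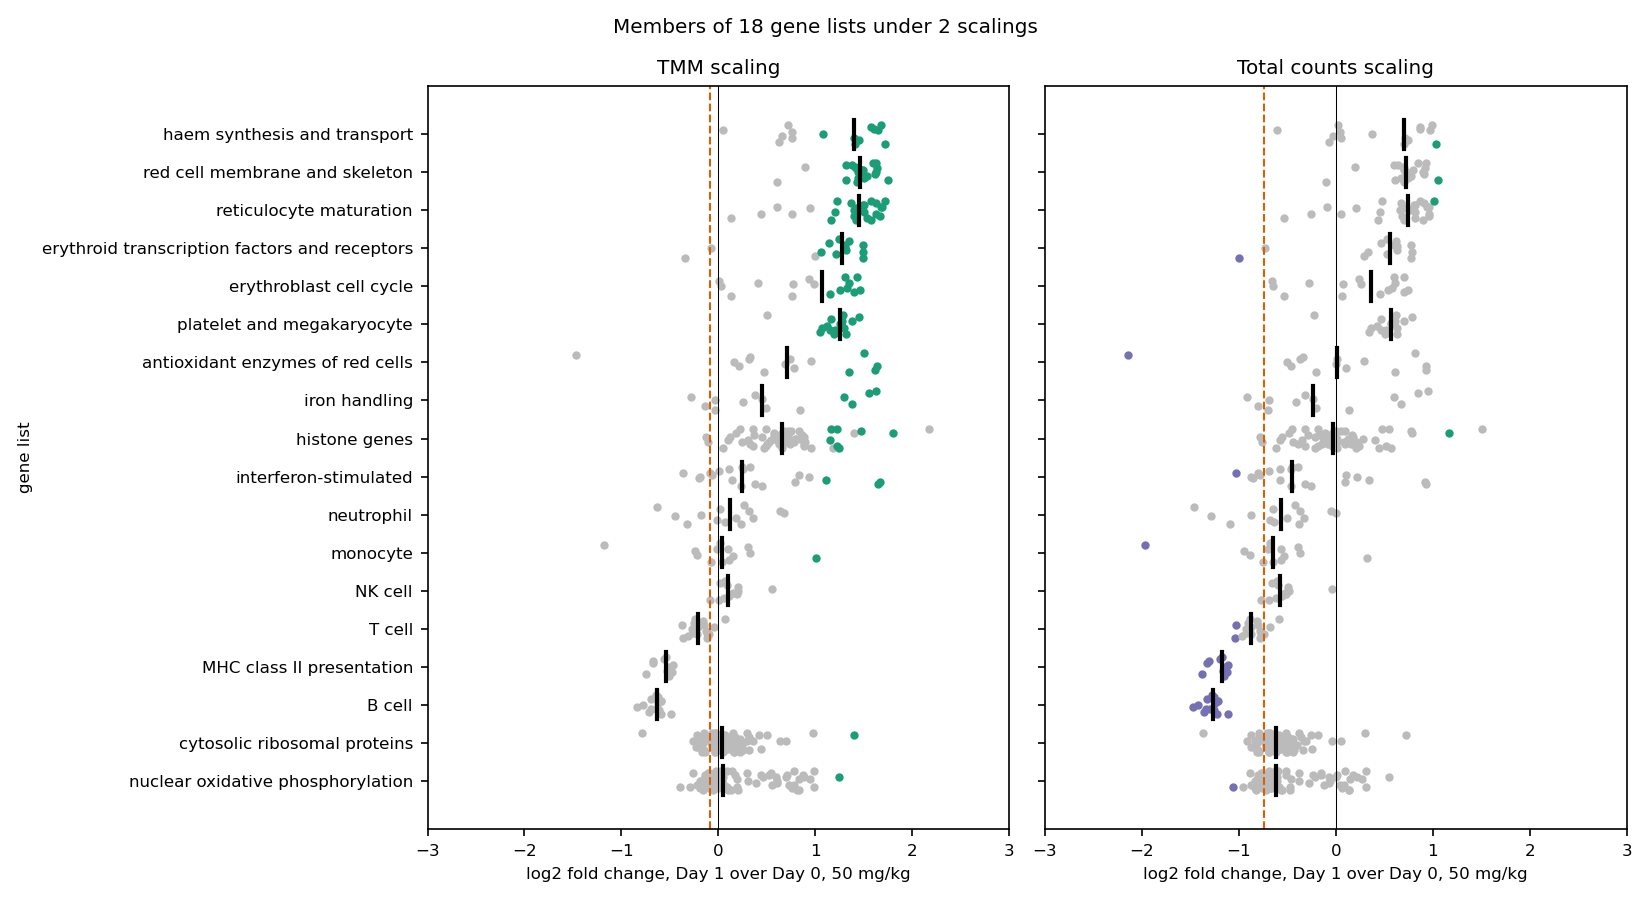
Log2 fold change, Day 1 over Day 0 at 50 mg/kg, of the members of 18 gene lists (1 dot a gene) with TMM scaling on the left and total counts on the right; green dots are DEGs higher on Day 1, violet dots DEGs lower, grey dots not DEGs, black lines the list medians and the orange dashed line the median of all genes tested (-0.09 and -0.74). The medians of the red cell and platelet lists lie to the right of the dashed line in both panels and the B cell and MHC class II lists to the left of it.

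The largest increases were mostly of short noncoding RNAs and pseudogenes. Among DEGs reaching 10 CPM on either day whose groups did not overlap, the 10 largest were Gm25732, Rny1, Rn7s2, Oaz1-ps, Rny3, Gm10371, Ftl1-ps1, Gm6055, Gm16580 and Tmem256, with log2 fold changes of 3.06 down to 1.77, while 0 of the 153 genes lower on Day 1 met the rule. Gm25732, annotated as a microRNA at chr4:139338206-139338265, stood at 2.05 to 7.37 CPM on Day 0 (median 3.95) and 11.8 to 95.4 CPM on Day 1 (median 24.3). Mouse 31 was far above the other Day 1 mice. The log2 fold change was 3.06 (standard error 0.46, edgeR adjusted p = 0.00123) and 2.36 with total counts.

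Rny1 and Rny3 are Y RNAs, small cytoplasmic RNAs bound by the Ro protein, and Rn7s1 and Rn7s2 are 7SL RNAs, the RNA core of the signal recognition particle. These 4 of 9 structural noncoding RNA genes were DEGs, all higher, and all 4 stayed DEGs with total counts. Rny1 stood at 0.850 to 3.43 CPM on Day 0 and 5.53 to 22.5 CPM on Day 1 (log2 2.40, adjusted p = 0.00134). Rn7s1 stood at 2.01 to 13.2 CPM on Day 0 and 11.1 to 58.8 CPM on Day 1 and overlapped through mouse 2 (log2 2.09, adjusted p = 0.00301). These RNAs have no long poly(A) tail, are copied many times in the genome and were counted at low levels, so their single values are uncertain.

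Oaz1-ps, Ftl1-ps1, Gm6055 and Gm16580 are pseudogenes or copies, which can collect reads from the genes they were copied from. Gm16580 also overlaps Luc7l on the same strand, so the reads of these genes may not be told apart. Oaz1-ps stood at 5.75 to 17.3 CPM on Day 0 and 26.6 to 60.1 CPM on Day 1 (log2 2.08, adjusted p = 0.00123), and Ftl1-ps1 rose by 1.87 beside 1.62 for Ftl1. Gm10371 lies antisense to Samd4, and without stated use of strand in counting the reads of the pair cannot be told apart. Tmem256, which encodes a small membrane protein, rose from 62.9 ± 35.6 to 217 ± 77.4 CPM (SD, n = 6, log2 1.77, adjusted p = 0.00154). Small nucleolar and Cajal body RNAs did not follow, with 0 higher and 1 lower among 76 measured and a median of 0.04. The one that was lower was Snord87 (-1.50, under 1 CPM on both days; named after its value was seen).

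Of the other gene lists, the first 3 below had a smaller share of DEGs higher on Day 1 than the 5.51% of all genes. Of 82 ribosomal protein genes, Rpl41 rose (log2 1.40) and the median was 0.04. Of 76 nuclear genes of oxidative phosphorylation, Atp5b rose (1.25), with 7 DEGs without mouse 2, and the median was 0.04, and of 38 proteasome genes, Psmd4 rose (1.18) and the median was -0.06. By adjusted p alone, 8 of the ribosomal protein genes, 27 of the oxidative phosphorylation genes and 4 of the proteasome genes were higher, against 12.2% of all genes. With total counts 0 genes of these 3 lists were DEGs higher on Day 1, and the medians were -0.62, -0.62 and -0.71. Mitochondrially encoded genes had 0 DEGs of 11 with edgeR and DESeq2 and a median of -0.24, with mt-Co1 at 0.34 and mt-Cytb at -0.01. At an unadjusted p under 0.05, 5 were lower and 0 higher, and 1 was lower by adjusted p. With total counts their median was -0.88, with 5 DEGs lower, against -0.74 for all genes. Among 20 interferon-stimulated genes, 3 rose, a larger share than the 5.51% of all genes. They were Rsad2 (1.66), Isg15 (1.64) and Oas3 (1.11), while Mx2 and Ddx58 were at -0.20 and -0.36 (named after their values were seen). Rsad2 stood at 837 to 2585.92 CPM on Day 0, the highest being mouse 2, and 2202.81 to 9154.34 CPM on Day 1, the highest being mouse 32. Oas3 was not called without mouse 1, 3, 6, 32 or 35. The median of the list was 0.25, with 8 of 20 genes higher by adjusted p alone, and with total counts it was -0.45, with 0 DEGs higher and 1 lower.

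Stress and hormone lists held few DEGs by number, where 5.51% of all genes were DEGs higher on Day 1. The immediate early and p53 lists, with 1 DEG each, lay near that share. The heat shock list, with 2 DEGs of 12, lay above it. Of 15 immediate early genes, Jund rose (1.30), and of 12 p53 targets, Phlda3 rose (1.17, named after its value was seen), while Trp53inp1 and Ccng1 were at 0.16 and 0.02. Of 12 heat shock genes, the inducible Hsp70 genes Hspa1a and Hspa1b rose by 2.80 and 2.66 from means of 0.0941 and 0.303 to 0.693 and 1.91 CPM (named after their values were seen, and near-identical copies), and the abundant chaperone genes Hsp90ab1 and Hspa8 were at 0.41 and 0.38. By adjusted p alone, 8 of the 12 heat shock genes were higher, against 12.2% of all genes. The median of that list was 0.48 with TMM and -0.16 with total counts, where 5 of 12 stayed positive and 2 were DEGs higher on Day 1. Circadian clock genes had 0 DEGs of 16 (Clock at -0.30, Per1 at 0.11) and glucocorticoid-responsive genes 0 of 11 (Tsc22d3 at 0.27, Cxcr4 at 0.39), by edgeR and DESeq2, with 6 and 5 genes at an unadjusted p under 0.05. The time of day of bleeding was not used here.

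Genistein binds oestrogen receptors, and the transcripts of its receptor were close to absent. Esr2, the oestrogen receptor beta gene, was at 0 to 0.0773 CPM on Day 0 and 0 to 0.113 CPM on Day 1 (adjusted p = 0.575). The list of oestrogen receptors and coregulators had 0 DEGs of 10 with edgeR and DESeq2, 4 at an unadjusted p under 0.05 and a median of 0.03, with the coregulators Ncor1 and Ncoa2 at 0.02 and 0.18. Of 14 genes of the aryl hydrocarbon and NRF2 response, 3 rose, a larger share than the 5.51% of all genes. They were Nqo1 (1.43), a quinone reductase gene, Gclm (1.32), of glutathione synthesis, and Srxn1 (1.24), which repairs peroxiredoxins. The median of these 14 genes was 0.27 with TMM and -0.41 with total counts, which gave 0 DEGs and left 3 of the 14 positive. The log2 fold change of Gm26917 was 0.09 with TMM and -0.57 with total counts, so its sign turned with the scaling.

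Genes of other tissues were checked in the same libraries. The hepatocyte list had a median log2 fold change of -4.17 (-0.49 without mouse 1) with 1 DEG of 16, Apoa2, an apolipoprotein gene, at 0.228 to 66.1 CPM on Day 0 (median 0.496) and 0.263 to 1.69 CPM on Day 1. Mouse 1 held the value of 66.1, and Apoa2 was not called without mouse 1 or without any one of the 6 Day 1 mice. Without mouse 1 the number of genes lower on Day 1 went from 153 to 92, and of the 153, 118 were under 1 CPM on average on both days and 55 did not overlap. The other lists gave 0 DEGs of 8 for adipocytes, 0 of 6 for muscle, 0 of 10 for endothelium and connective tissue by edgeR and DESeq2, with 1, 2 and 4 genes at an unadjusted p under 0.05, and 1 of 5 for pancreas and gut, where Cela1, an elastase gene, rose from 6.72 ± 1.69 to 17.3 ± 4.14 CPM (SD, n = 6, log2 1.36, adjusted p = 0.00123).

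The same 24 h in vehicle-treated mice gave 0 DEGs of 24375 genes tested (0.00%) with edgeR, where 3007 reached an unadjusted p under 0.05, and DESeq2 called 1 gene higher and 36 lower. The red cell lists had negative medians there: -0.53 for haem synthesis, -0.79 for the membrane list, -0.65 for reticulocyte maturation, -0.51 for the regulators and -0.57 for platelet genes. With vehicle, Alas2 stood at 37463.6 to 64136.9 CPM on Day 0 and 26324.8 to 54614.3 CPM on Day 1. An interaction term, fitted over the 24 mice of the 4 groups, compared the change with drug and the change with vehicle. It called 1772 of 26323 genes with the more positive change at 50 mg/kg (6.73%) and 253 with the more negative change (0.961%). Without mice 1, 17 and 29, which held hepatocyte transcripts, the counts were 1583 and 153. With total counts they were 395 and 10182, so the balance of directions turned with the scaling here too.

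By list, the interaction called 11 of 15 haem genes, 21 of 21 membrane genes, 23 of 26 maturation genes, 12 of 14 regulators and 16 of 17 platelet genes, all in the positive direction. With total counts the medians of these lists stayed positive, at 0.77, 1.30, 1.05, 0.73 and 0.76, against -1.05 for all genes. Fewer genes were called there in the positive direction: 7 of 15, 15 of 21, 18 of 26, 3 of 14 and 1 of 17. Each was a larger share than the 395 of 26323 among all genes, though a single gene made up the platelet share. With that scaling 1 maturation gene and 2 regulators were called in the negative direction, smaller shares than the 10182 of 26323 among all genes. Most of the positive calls of regulator and platelet genes rested on TMM. For Alas2 the interaction with TMM was 2.21 (standard error 0.75), made up of 1.67 with drug and -0.53 with vehicle. For Slc4a1 it was 2.76 (standard error 0.56), made up of 1.59 and -1.16. For Gata1 it was 1.81 (standard error 0.27), made up of 1.31 and -0.51. Since the vehicle-treated mice stood lower on Day 1 than on Day 0 for these genes, the interaction exceeded the change in the drug-treated mice. Ighd was called in the negative direction (-1.04), with -0.84 with drug and 0.19 with vehicle.

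Set beside the vehicle-treated mice of each day, which the following comparisons share with the values above, the red cell lists had negative medians on Day 0 and positive medians on Day 1. The median log2 fold change of the reticulocyte maturation list relative to vehicle-treated mice was -1.50 on Day 0 and 0.61 on Day 1, that of the membrane list -1.70 and 0.65, and that of the platelet list -1.02 and 0.75. On Day 1, 0 of 24118 genes (0.00%) were DEGs by edgeR when 50 mg/kg was set against vehicle, where 4458 reached an unadjusted p under 0.05, and DESeq2 called 27 higher and 12 lower. A count of 0 does not show that the groups were alike. For Bnip3l, the Day 1 mice given 50 mg/kg stood at 9065.12 to 20994.7 CPM, the vehicle-treated mice at 8909.67 to 17063.6 CPM on Day 0 and at 7518.25 to 12830.3 CPM on Day 1, and these 3 groups overlapped, while 5 of the 6 Day 0 mice given 50 mg/kg lay below all of them.

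**Figure D4:**
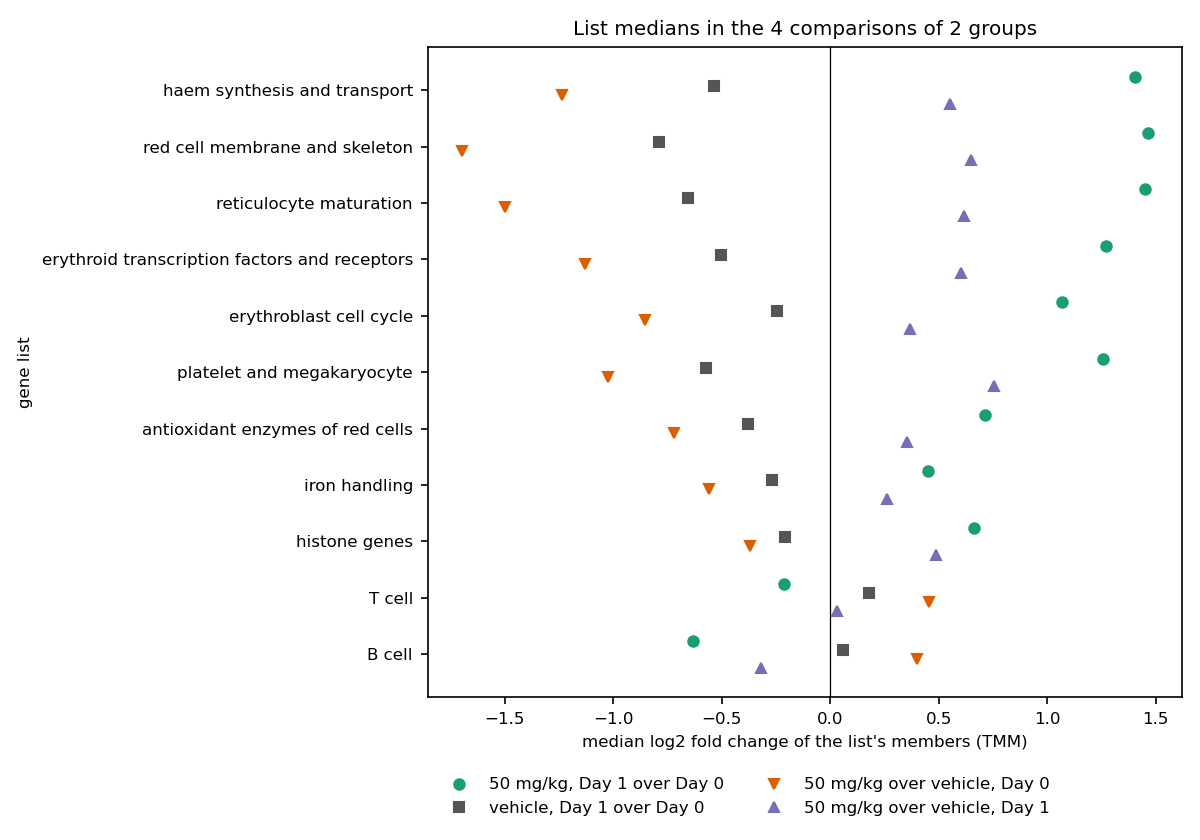
Median log2 fold change (horizontal axis, TMM) of the members of 11 gene lists in 4 comparisons of 2 groups, which share mice; circles are Day 1 over Day 0 at 50 mg/kg, squares Day 1 over Day 0 with vehicle, and triangles 50 mg/kg over vehicle on Day 0 (pointing down) and Day 1 (pointing up). For the reticulocyte maturation list the medians were 1.45, -0.65, -1.50 and 0.61.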

How the data were processed

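Whole blood RNA of mice was sequenced, and gene counts as deposited were used. Per the labels and the study's methods, the authors made raw counts per gene without normalisation, using Trimmomatic (trimming), STAR (alignment, GRCm38) and Subread (counting). The labels describe poly(A) selection and the methods a stranded total RNA kit with ribosomal and globin depletion, which was not resolved here. Deposited DESeq2 comparison tables of the study were not used. Counts of 12 mice that 2 tables repeat were identical. Symbols and positions came from GENCODE M21 (48970 of 49315 IDs), promoters from RefSeq GRCm38.p6.

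Genes with at least 10 counts over the mice fitted were tested with edgeR 4.0.16 (quasi-likelihood, TMM, limma 3.58.1, R 4.3.3) in a fit of the 12 mice. Standard errors were taken from the fold change and F. The interval in vehicle-treated mice and the comparisons with vehicle were fitted likewise, and the interaction in 24 mice. CPM values per mouse use TMM factors over those 24 mice. DESeq2 1.42.0 and other scalings, filters and sets of mice were alternatives. Named genes were the 10 DEGs with the largest and the 10 with the smallest log2 fold change whose mean reached 10 CPM on either day and whose groups did not overlap, in each list up to 4 DEGs with the largest absolute change and a mean of at least 5 CPM or, with none, the 2 members with the highest mean, and the 2 highest adult globin genes, Alas2, Slc4a1, Bnip3l, Gata1, Klf1, Tfrc, Gm26917 and Esr2. Of the genes so chosen, 1 is not reported here. The members and lists were chosen with earlier results of these data known. Scripts were tested on simulated data. Replicates are separate mice, and depth (total counts per mouse) limits genes under 1 CPM most.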

Additional observations from a re-analysis of the deposited data

Results flagged for a closer look

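Within the 2 groups of mice given 50 mg/kg, the highest or lowest of the 6 mice was set apart from its nearest neighbour by more than Dixon's 95% critical value in 39 of 204 groups of values tested. Chance gives about 1 in 20 such groups, and the values are not independent, since red cell genes vary together. Most of them were mouse 2, above the other 5 Day 0 mice. It held Oaz1-ps at 17.3 CPM, Gm10371 at 118 CPM, Ftl1-ps1 at 25 CPM, Gm6055 at 8.67 CPM, Tmem256 at 133 CPM, Slc25a39 at 4796 CPM, Alas2 at 34759 CPM, Abcb6 at 37.7 CPM and Slc25a37 at 9103 CPM. It also held Tspan33 at 151 CPM, Add2 at 49.1 CPM, Rnf10 at 5029 CPM, Bcl2l1 at 1228 CPM, Tfdp2 at 856 CPM, Klf1 at 2.86 CPM, Ftl1 at 5967 CPM, Fth1 at 2042 CPM and Ccna2 at 36 CPM. It also held Ccnb2 at 13 CPM, Isg15 at 44.7 CPM, Gclm at 324 CPM, Glrx5 at 259 CPM, Prdx2 at 833 CPM, Gpx1 at 2753 CPM, Atp5b at 600.0 CPM, Psmd4 at 78.3 CPM and Bnip3l at 9008 CPM. On Day 1, mouse 31 stood apart with Gm25732 at 95.4 CPM. On Day 1, mouse 32 stood apart with Rny3 at 26.5 CPM, Ube2o at 10156 CPM, Ncor1 at 291 CPM, mt-Co1 at 3833 CPM and Hbb-bs at 204377 CPM. On Day 0, mouse 3 stood apart with Rrm2 at 4.66 CPM. On Day 0, mouse 1 stood apart with Apoa2 at 66.1 CPM and Car3 at 86.5 CPM. On Day 1, mouse 36 stood apart with Car3 at 18.6 CPM. On Day 0, mouse 4 stood apart with Acta2 at 1.82 CPM. Mouse 4 stood apart on Day 0 by its total of 16962659 counts, below the others. The 2 low values are those of Rrm2 in mouse 3 and Acta2 in mouse 4, and the other genes were high.

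The change from Day 0 to Day 1 under 50 mg/kg departed from that under vehicle for 1772 genes in the positive and 253 in the negative direction by edgeR's interaction term (adjusted p under 0.05 and an absolute log2 value over 1). The values below are that term on the log2 scale, which is the change with the drug minus the change with vehicle. Among the 10 largest increases it was 4.10 for Gm25732, 3.27 for Rny1, 3.08 for Rn7s2, 2.55 for Oaz1-ps, 3.37 for Rny3, 2.42 for Gm10371, 2.59 for Ftl1-ps1, 2.59 for Gm6055, 2.42 for Gm16580 and 2.34 for Tmem256. Among red cell genes for globin, haem, membrane and maturation it was 1.58 for Hbb-bt, 2.35 for Slc25a39, 2.21 for Alas2, 2.08 for Abcb6, 2.37 for Slc25a37, 2.47 for Tspan33, 2.63 for Add2, 1.80 for Ermap, 2.23 for Aqp1, 2.76 for Slc4a1, 2.47 for Rnf10, 2.59 for Ube2o, 2.62 for Bcl2l1 and 2.03 for Bnip3l. Among regulators, iron genes and antioxidant enzymes it was 2.42 for E2f2, 2.18 for Tfdp2, 2.06 for Epor, 1.85 for Klf1, 1.81 for Gata1, 1.56 for Tfrc, 2.22 for Ftl1, 2.28 for Ncoa4, 1.81 for Fth1, 2.58 for Glrx5, 2.09 for Prdx2, 2.06 for Gpx1 and 2.11 for Cat. Among cell cycle and histone genes it was 1.75 for Birc5, 1.98 for Ccna2, 1.80 for Ccnb2, 1.52 for Rrm2, 1.63 for Hist1h2bc and 1.38 for Hist1h4i. Among platelet genes it was 1.78 for Gp9, 1.47 for Clec1b, 1.68 for Nrgn, 1.60 for Ppbp and 1.35 for F13a1. Among the other genes named it was 2.52 for Rsad2, 2.46 for Isg15, 2.14 for Oas3, 1.94 for Jund, 2.47 for Nqo1, 1.92 for Gclm, 1.84 for Srxn1, 1.77 for Rpl41, 1.76 for Atp5b, 1.72 for Psmd4, 2.77 for Rn7s1, 2.12 for Kdr and 1.28 for Cela1. For Ighd it was -1.04. Kdr was not a DEG between the days at 50 mg/kg. In the vehicle-treated Day 0 mice it stood at 2.89 to 16.6 CPM (median 4.30), the highest being mouse 17.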

How the results depend on the processing

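The count of genes higher on Day 1 (1331) went to 153 with total counts, 625 with total counts without the 50 largest genes and 2937 without the fold limit. The count lower (153) went to 3963, 1042 and 2147 under the same alternatives, 99 with DESeq2, 52 with filterByExpr, and 92 without mouse 1. With each mouse left out in turn the counts were 1030 to 1546 higher and 92 to 192 lower. In vehicle-treated mice DESeq2 gave 1 higher and 36 lower where edgeR gave 0. The interaction gave 395 higher and 10182 lower with total counts, 165 lower with filterByExpr, and 153 lower without the mice with hepatocyte transcripts, an alternative added after seeing the data, as was leaving out mouse 2 from that fit. The cause of these moves was not tested. No paired analysis was possible because each mouse has its own animal number and was bled once. Depth limits genes under 1 CPM.

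Named genes that changed sign were not DEGs, and their values were as follows on the log2 scale. With total counts for Day 1 over Day 0 it was -0.49 for Gzma, -0.60 for Ncr1, -0.50 for Csf3r, -0.33 for S100a9, -0.45 for Ccr3, -0.52 for Trp53inp1, -0.64 for Ccng1, -0.26 for Hsp90ab1, -0.28 for Hspa8, -0.55 for Per1, -0.37 for Tsc22d3, -0.25 for Cxcr4, -0.66 for Ncor1, -0.52 for Ncoa2, -0.33 for mt-Co1, -0.58 for Scarna10, -0.54 for Scarna2, -0.25 for Acta2, -0.23 for Pecam1 and -0.57 for Gm26917. With total counts without the 50 largest genes for Day 1 over Day 0 it was -0.13 for Gzma, -0.24 for Ncr1, -0.15 for Csf3r, -0.13 for Ccr3, -0.17 for Trp53inp1, -0.29 for Ccng1, -0.20 for Per1, -0.029 for Tsc22d3, -0.31 for Ncor1, -0.16 for Ncoa2, -0.26 for Scarna10, -0.19 for Scarna2 and -0.22 for Gm26917. Without mice with hepatocyte transcripts for Day 1 over Day 0 it was -0.00211 for Ccng1 and -0.0593 for Scarna10. With RLE factors for Day 1 over Day 0 it was 0.0381 for mt-Cytb. With DESeq2 Wald test for Day 1 over Day 0 it was 0.0381 for mt-Cytb. With the filterByExpr filter for Day 1 over Day 0 it was 0.0152 for mt-Cytb. With 24 mice fitted together for Day 1 over Day 0 it was 0.00202 for mt-Cytb. With total counts in the interaction it was -0.75 for Csf3r, -0.64 for S100a9, -0.68 for Ccr3, -0.78 for Trp53inp1, -0.31 for Hsp90ab1, -0.72 for Hspa8, -0.74 for Per1, -0.87 for Tsc22d3, -0.73 for Cxcr4, -0.76 for Ncor1, -0.47 for Ncoa2, -0.20 for mt-Co1, -0.67 for mt-Cytb, -0.76 for Scarna2, -0.21 for Lpl, -0.22 for Acta2, -0.62 for Tnnt3, -0.23 for Pecam1 and -0.77 for Gm26917. Without the mice with hepatocyte transcripts in the interaction it was -0.00107 for mt-Cytb and 1.09 for Car3. With each mouse left out in turn, the value ranged from -0.00211 to 0.0534 for Ccng1, from -0.0534 to 0.0700 for Ncor1, from -0.00658 to 0.22 for Ncr1, from -0.0593 to 0.23 for Scarna10 and from -0.14 to 0.11 for mt-Cytb.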
